A study of Glycine max with 9 samples.

Results

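Auxin response factor 9 (ARF9, LOC100803911) and aminopeptidase M1 (LOC100811437) were followed through all of their transcript forms in sucrose-treated soybean roots. All rows of the deposited table that share a gene identifier with either name were taken. This gave 2 of the 62645 gene identifiers and 9 of the 119600 transcripts, 5 forms for ARF9 and 4 for aminopeptidase M1. The roots came from hydroponically grown *Glycine max* cv. Williams 82. The treated plants had 10 mM sucrose in their nutrient solution for 20 min (t20) or 40 min (t40), and the controls (t0) had none added. Each time had 3 plants, root tip sections of about the same size were harvested, and each plant gave one RNA-seq library. Libraries carry the numbers of their columns: t0 has libraries 1, 2 and 3, t20 has 4, 5 and 6, and t40 has 7, 8 and 9.

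The study picked both genes for their rise at 20 min against t0 in these same libraries. Their values are therefore a description and carry no test. All values are FPKM, fragments counted per unit of transcript length and of sequencing depth, which the authors' tools estimated for each form. A gene sum is the FPKM of all forms of one gene added up. In whole root tips, fewer cells of one type and less RNA per cell cannot be told apart. The gene names are those of the study and of the annotation, and no protein sequence was compared here.

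Auxin response factors are DNA-binding proteins that switch auxin-regulated genes on or off. Aux/IAA repressors hold them in check, and the TIR1 and AFB receptors mark these repressors for breakdown when auxin is present. M1 aminopeptidases are zinc enzymes that cut single residues from the amino end of peptides. In *Arabidopsis*, aminopeptidase M1 is known for binding an inhibitor of auxin transport and for its role in root and embryo growth. One gene can give several transcript forms when exons are joined in different ways, and a short-read assembler has to share the reads of common exons among them.

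The 5 forms of ARF9 lie on the minus strand of chromosome 1, between 35187514 and 35192417 (Glycine_max_v4.0, the build of the table and of the annotation). The annotated mRNA form XM_006573254.3 has 14 exons and 2913 bases. The assembled form MSTRG.769.4, which carries no annotated name, also has 14 exons but only 2864 bases. It starts 21 bases further downstream at the 5′ end and ends at the same base, which leaves a net difference of 28 bases inside the transcript. XR_001387768.3, which the annotation lists as a non-coding RNA, has 15 exons and 2742 bases and runs 269 bases further at the 3′ end. The assembled forms MSTRG.769.2 and MSTRG.769.3 have 13 exons with 3013 bases and 15 exons with 2824 bases. The deposited table gives ends, exon number and length of a form, so the exons that differ cannot be named.

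The 4 forms of aminopeptidase M1 lie on the plus strand of chromosome 4 and all end at 4338900. XM_006578022.4 starts at 4332374 and has 20 exons and 2969 bases. XM_003522221.5 starts at 4332367 and has 19 exons and 3087 bases, a net 111 bases more inside the transcript. XM_006578021.4 starts at 4332373, with 18 exons and 3162 bases. These 3 are annotated as mRNA. The assembled form MSTRG.6394.4 starts at 4332396 and has 19 exons and 3064 bases, a net 6 bases more inside than XM_003522221.5.

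In both genes the form with the highest mean differed between sucrose-treated and control roots, while the gene sum moved far less. In aminopeptidase M1 the control form still led in 1 library of each sucrose time. For ARF9, the assembled form MSTRG.769.4 averaged 64.1 ± 20.7 FPKM at t20 and 2.26 ± 0.704 FPKM at t0 (SD, n = 3 each). The annotated mRNA form XM_006573254.3 averaged 1.81 ± 2.02 FPKM at t20 and 42.0 ± 10.2 FPKM at t0. For aminopeptidase M1, XM_003522221.5 averaged 19.5 ± 4.99 FPKM at t20 and 0.105 ± 0.0534 FPKM at t0, while XM_006578022.4 averaged 12.4 ± 3.54 FPKM at t20 and 22.0 ± 1.46 FPKM at t0. The ARF9 gene sum at t20 was 1.82 times that at t0, and the aminopeptidase M1 sum 1.37 times.

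**Figure D1:**
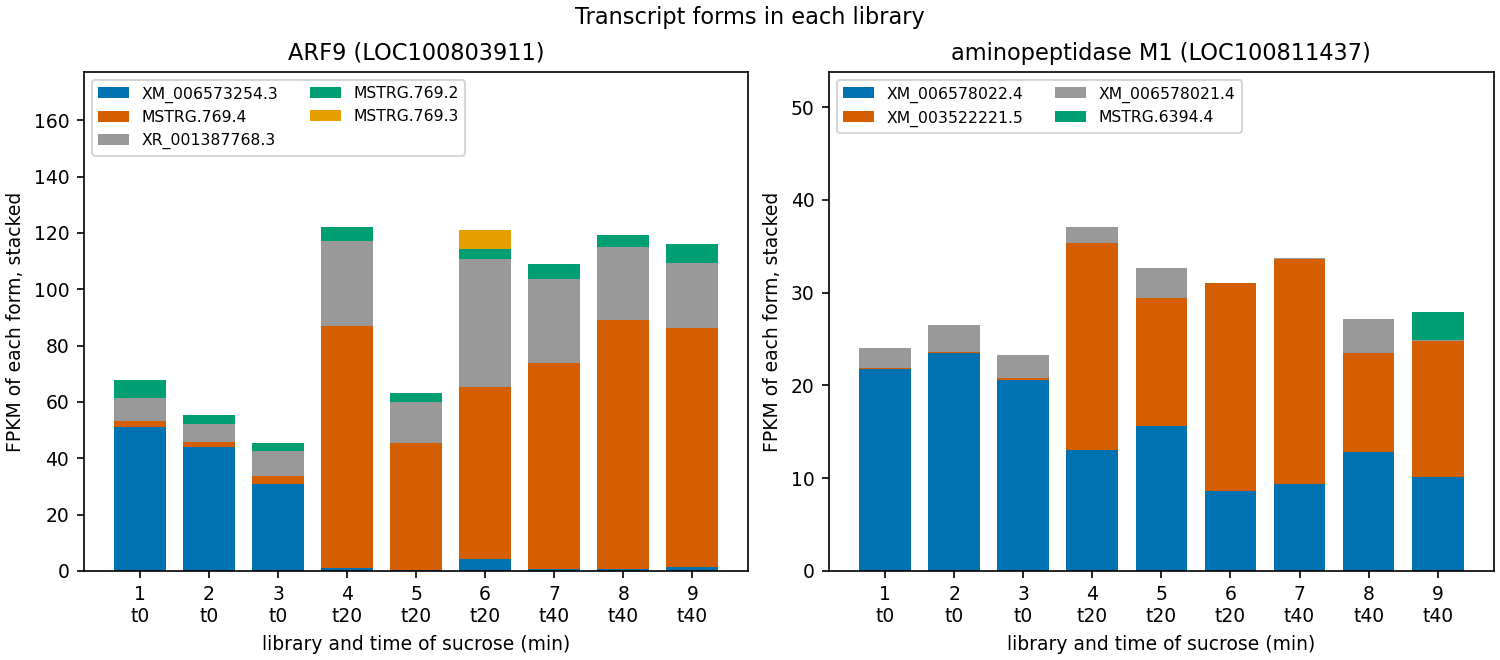
Stacked FPKM of each transcript form (vertical axis) in libraries 1 to 9 (horizontal axis), for ARF9 on the left and aminopeptidase M1 on the right; each colour is one form and the height of a bar is the gene sum. In ARF9 the blue form fills most of the control bars and the orange form most of the t20 and t40 bars; in aminopeptidase M1 the orange form is barely visible in the control bars and lies on top of a remaining blue form in the t20 and t40 bars.

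MSTRG.769.4 was the ARF9 form with the largest increase in FPKM. It had 86.08, 44.94 and 61.12 FPKM in t20 libraries 4, 5 and 6, against 2.33, 1.53 and 2.93 FPKM in t0 libraries 1, 2 and 3. In t40 libraries 7, 8 and 9 it had 73.04, 88.44 and 84.95 FPKM. Every sucrose library lay far above every control, and library 5 was the lowest of the treated ones. On the scale of log2(FPKM + 1) the difference from t0 was 4.29 (SE 0.27) at t20 and 4.69 (SE 0.27) at t40. Among the 52586 transcripts with at least 1 FPKM in at least 3 libraries, this was the 7th largest difference at t20 and the 50th at t40.

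XM_006573254.3 moved the other way. It had 0.85, 0.45 and 4.13 FPKM in libraries 4, 5 and 6 at t20, against 50.96, 44.06 and 30.89 FPKM in libraries 1, 2 and 3 at t0. At t40, libraries 7, 8 and 9 had 0.77, 0.63 and 1.19 FPKM. The log2 difference was -4.14 (SE 0.45) at t20 and -4.51 (SE 0.45) at t40, the 13th and 16th lowest values among the same transcripts. Library 6 had more of this form than the other 5 sucrose libraries, yet still well below the lowest control.

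XR_001387768.3, the non-coding model, was higher after sucrose as well. It had 30.25, 14.7 and 45.49 FPKM at t20 and 29.98, 25.75 and 23.2 FPKM at t40, against 7.95, 6.46 and 8.68 FPKM at t0. Again no sucrose library overlapped a control. The mean at t20 was 3.92 times and the mean at t40 3.42 times that at t0, a much smaller ratio than for MSTRG.769.4.

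MSTRG.769.2 showed no such separation. It ranged from 2.82 to 6.48 FPKM at t0, from 2.93 to 4.91 at t20 and from 4.3 to 6.76 at t40. MSTRG.769.3 was listed at 0 in every library but library 6, a t20 library, where it had 6.61 FPKM. It did not pass the filter of at least 1 FPKM in at least 3 libraries.

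As shares of the ARF9 gene sum, MSTRG.769.4 made up 64.1% ± 11.8 at t20, against 4.22% ± 1.97 at t0 (SD, n = 3 each), and 71.4% ± 3.95 at t40. XM_006573254.3 made up 1.61% ± 1.57 at t20 and 0.755% ± 0.251 at t40, against 74.4% ± 5.84 at t0. MSTRG.769.4 was the highest form in all 6 sucrose libraries, and XM_006573254.3 in all 3 controls. Within a library, the ratio of MSTRG.769.4 to XM_006573254.3 was 14.8 to 101 at t20 and 71.3 to 139 at t40, against 0.0347 to 0.0948 at t0. Library 6 had the lowest ratio of the sucrose libraries. It also had the largest share of XR_001387768.3, 37.6%, where the other sucrose libraries had 20.0% to 27.5%.

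**Figure D2:**
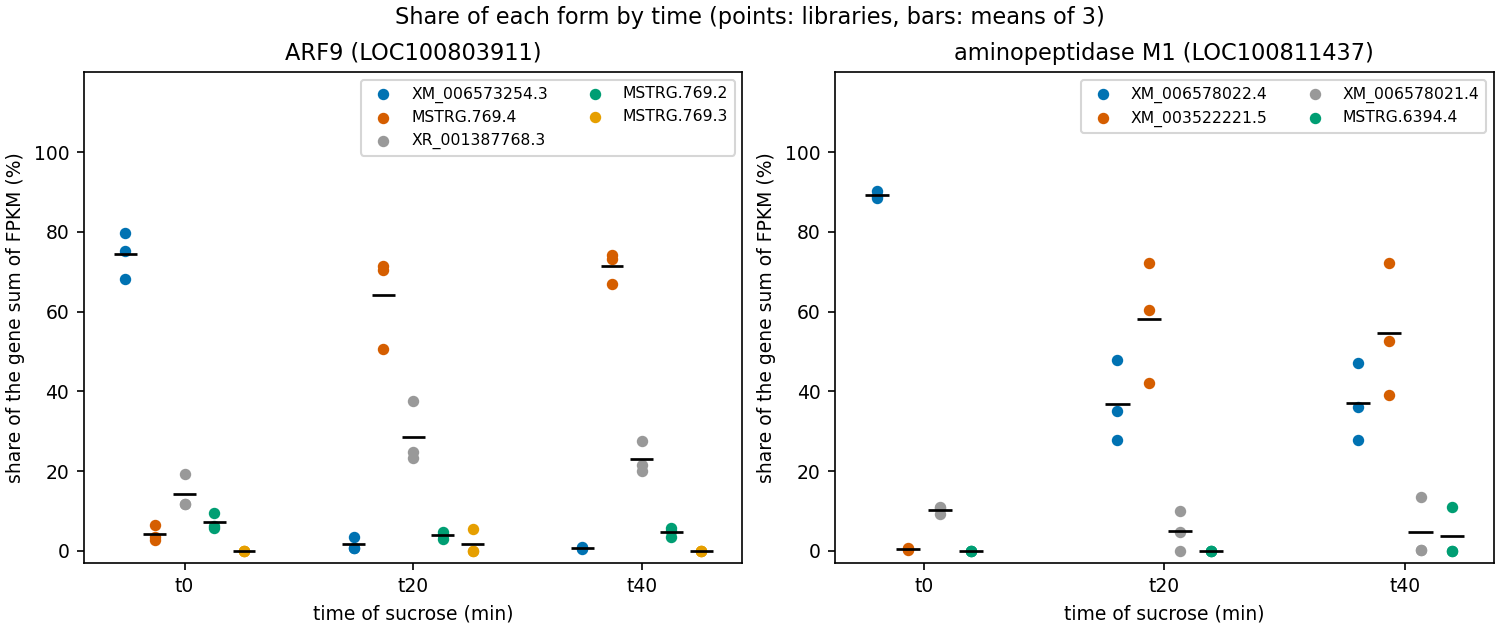
Share of the gene sum of FPKM taken by each form (vertical axis, percent) at t0, t20 and t40 (horizontal axis), for ARF9 on the left and aminopeptidase M1 on the right; points are libraries and black bars means of 3. In ARF9 the blue and orange forms trade places between t0 and t20 and stay there at t40, while in aminopeptidase M1 the ranges of both leading forms overlap at t20 and at t40.

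The ARF9 gene sum was 122.1, 63.0 and 121.0 FPKM in libraries 4, 5 and 6 at t20, against 67.7, 55.3 and 45.3 FPKM in libraries 1, 2 and 3 at t0. Library 5 thus lay within the range of the controls in its total, although MSTRG.769.4 made up 71.3% of it. At t40 the sum was 109.1, 119.1 and 116.1 FPKM, above every control. All 3 libraries lay above all controls in 10.6% of the 32763 genes tested at t20 and in 26.6% at t40. By mean, t40 came first with 115 ± 5.13 FPKM, then t20 with 102 ± 33.8 and t0 with 56.1 ± 11.2 (SD, n = 3 each). The order of t40 and t20 rests on a difference smaller than the spread at t20. The log2 difference from t0 was 0.81 (SE 0.27) at t20 and 1.04 (SE 0.27) at t40. These are the 2595th and 3682nd largest values among those genes. Without library 5 the difference at t20 was 1.12, and over all fits that left out one library it lay between 0.65 and 1.12.

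With MSTRG.769.4 taken out, the rest of the ARF9 sum was 36.0, 18.1 and 59.9 FPKM at t20 and 36.1, 30.7 and 31.2 FPKM at t40, against 65.4, 53.7 and 42.4 FPKM at t0. The t40 libraries lay below every control in this remainder, and library 6 at t20 lay within the control range.

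In aminopeptidase M1, XM_003522221.5 was close to absent in the controls and was well expressed after sucrose. It had 22.35, 13.73 and 22.38 FPKM in libraries 4, 5 and 6 at t20 and 24.31, 10.65 and 14.73 FPKM in libraries 7, 8 and 9 at t40. The control libraries 1, 2 and 3 had 0.1, 0.06 and 0.16 FPKM. The lowest sucrose library was library 8 at t40, and it still lay far above the controls. The log2 difference was 4.18 (SE 0.32) at t20 and 3.92 (SE 0.32) at t40, the 9th and 148th largest among the 52586 transcripts. On this scale the added 1 FPKM outweighs the control value, so the difference understates the ratio.

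XM_006578022.4 was lower after sucrose but did not vanish. It had 12.99, 15.66 and 8.65 FPKM at t20 and 9.35, 12.81 and 10.07 FPKM at t40, against 21.72, 23.53 and 20.63 FPKM at t0. The mean at t20 was 0.566 times and the mean at t40 0.489 times that at t0. The log2 differences of -0.81 (SE 0.24) and -0.98 (SE 0.24) are far smaller than those of XM_006573254.3 in ARF9.

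The minor forms of aminopeptidase M1 varied among libraries of one time. XM_006578021.4 was even in the controls at 2.23, 2.9 and 2.52 FPKM. It had 1.74, 3.32 and 0 FPKM at t20 and 0.03, 3.7 and 0.05 FPKM at t40. Libraries 5 and 8 thus lay above all controls, and libraries 6, 7 and 9 close to or at 0. MSTRG.6394.4 was listed at 0 in all libraries but library 9, a t40 library with 3.09 FPKM, and did not pass the filter.

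XM_003522221.5 made up 58.1% ± 15.2 of the aminopeptidase M1 sum at t20, against 0.437% ± 0.243 at t0 (SD, n = 3 each), and 54.7% ± 16.6 at t40. XM_006578022.4 made up 36.9% ± 10.1 at t20 and 37.0% ± 9.74 at t40, against 89.2% ± 0.969 at t0. Controls had 88.5% to 90.3% in this share, while the sucrose libraries ranged from 27.8% to 47.9%. In libraries 5 and 8 XM_006578022.4 was still the highest form, at 47.9% and 47.2%, and XM_003522221.5 had 42.0% and 39.2%. In the other 4 sucrose libraries XM_003522221.5 led, with 72.1% in libraries 6 and 7. The ratio of XM_003522221.5 to XM_006578022.4 was 0.877 to 2.59 at t20 and 0.831 to 2.6 at t40, against 0.00236 to 0.00784 at t0.

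**Figure D3:**
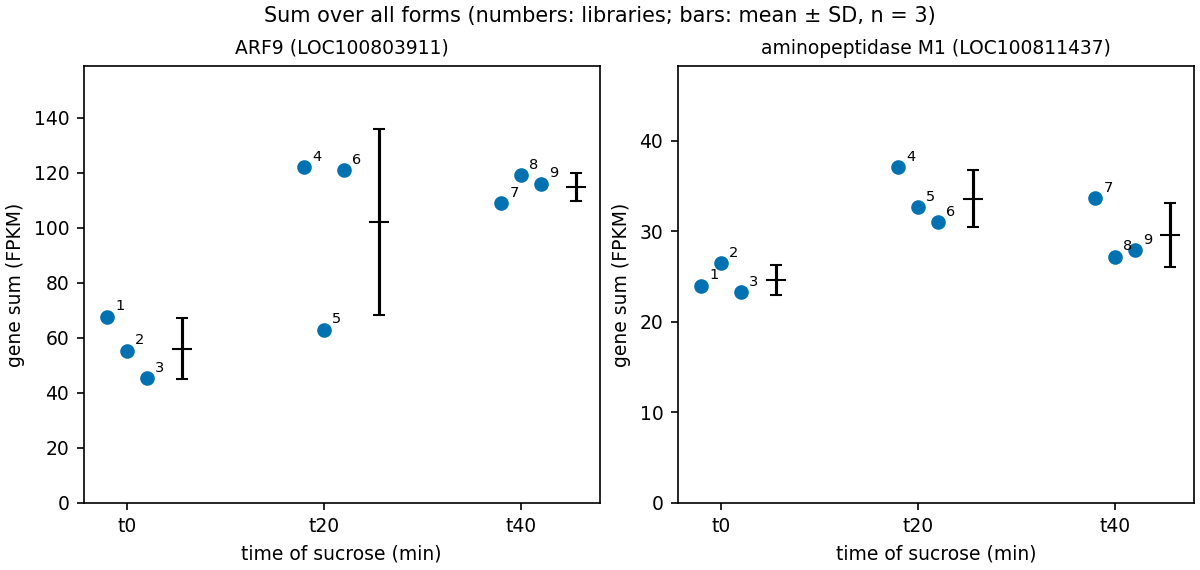
Gene sum of FPKM (vertical axis) at t0, t20 and t40 (horizontal axis) for ARF9 and aminopeptidase M1; points are libraries with their numbers, and bars are mean ± SD of 3 libraries. Library 5 at t20 lies among the ARF9 controls at 63.0 FPKM, and the aminopeptidase M1 sums of all times fall between 23.3 and 37.1 FPKM.

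The aminopeptidase M1 sum was 37.1, 32.7 and 31.0 FPKM at t20 and 33.7, 27.2 and 27.9 FPKM at t40, against 24.0, 26.5 and 23.3 FPKM at t0. The lowest sucrose value, 27.2 FPKM in library 8, lay just above the highest control. All 6 sucrose libraries were above all 3 controls for 8.6% of the 32763 genes. By mean the order was t20 with 33.6 ± 3.12 FPKM, t40 with 29.6 ± 3.57 and t0 with 24.6 ± 1.66 (SD, n = 3 each), and the ranges of t20 and t40 overlapped. The log2 difference from t0 was 0.43 (SE 0.16) at t20 and 0.25 (SE 0.16) at t40, the 5633rd and 12424th largest values. Without XM_003522221.5 the sum was 14.7, 19.0 and 8.6 FPKM at t20 and 9.4, 16.5 and 13.2 FPKM at t40, against 23.9, 26.4 and 23.2 FPKM at t0.

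Of the 9 forms, 7 passed the filter. For 3 of them all 6 sucrose libraries lay above all 3 controls, namely MSTRG.769.4, XR_001387768.3 and XM_003522221.5, where 6.19% of the 52586 transcripts did so. XM_006573254.3 and XM_006578022.4 lay below all controls in all 6, as did 3.72% of transcripts. The study chose the genes on this contrast, so these counts describe the forms only.

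The size of the exchange was also set beside that of other genes. For each of 7986 genes with more than 1 form and a gene sum of at least 5 FPKM in every library, the part of the gene sum that passed from some forms to others was taken from the mean shares. The median gene moved 7.5% at t20 and 10% at t40 against t0, and 95% of genes moved at most 36.2% and 42.1%. ARF9 moved 76.1% at both times, the 6th and 17th largest values. Aminopeptidase M1 moved 57.7% at t20 and 57.9% at t40, the 47th and 88th largest. Both genes were chosen for a rise that matches a single form of each. A large move follows in part from that choice, so these ranks are a description. One form led in all 3 controls and the same other form in all 6 sucrose libraries in 16 genes, or 0.2%, and ARF9 is one of them. For either time alone, such a change of the leading form was seen in 0.576% of genes at t20 and 1.01% at t40, with ARF9 in both counts. Aminopeptidase M1 is in none of them, because XM_006578022.4 still led in libraries 5 and 8.

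**Figure D4:**
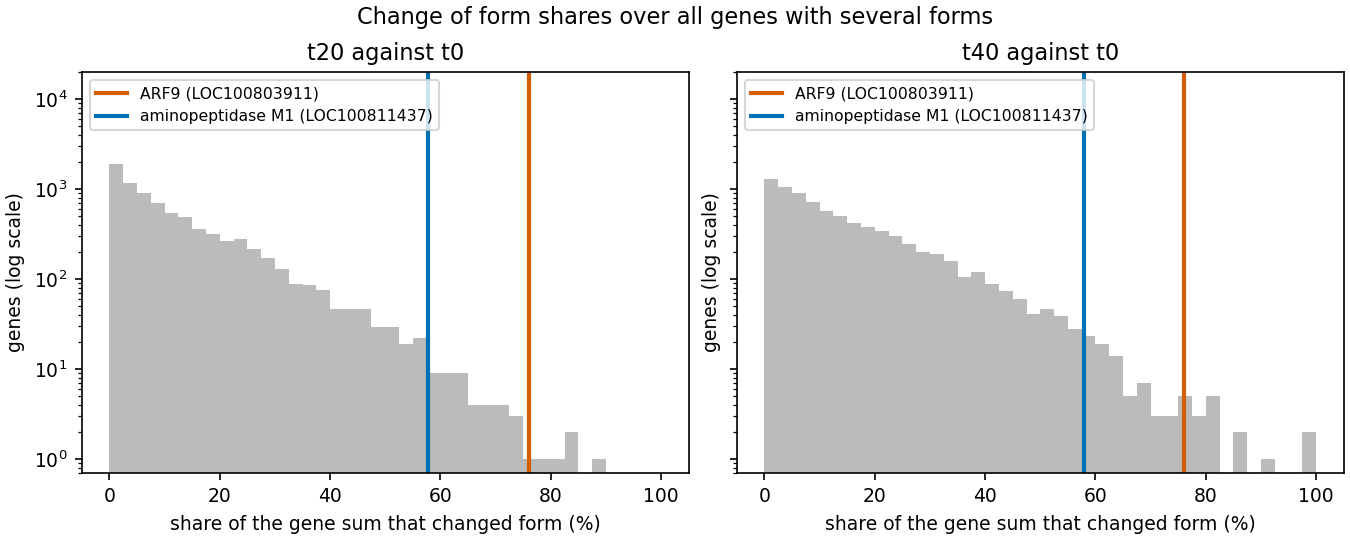
Number of genes (vertical axis, log scale) by the percent of the gene sum that changed form (horizontal axis) at t20 and at t40 against t0, over 7986 genes with several forms; vertical lines mark ARF9 and aminopeptidase M1. Both lines lie in the right tail, ARF9 at 76.1% and aminopeptidase M1 at 57.7% and 57.9%.

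The division of FPKM among forms is an estimate, since the forms of one gene share most of their bases, and a form listed at 0 in some libraries may be a failed estimate. Gene sums add all forms and do not depend on this division in the same way. The depth of single libraries was not used here, so no counting error is given. Across the tested genes, libraries of one time correlated at 0.933 to 0.971 for t0, 0.907 to 0.952 for t20 and 0.966 to 0.974 for t40 (Pearson, log2 values), so t20 was the least even. Of 6 root-associated genes (isoflavone synthases IFS1 and IFS2, chalcone synthases CHS7 and CHS8, expansins EXP1 and EXPB2), all were detected in every library. Their summed level was 811 to 1200 FPKM at t20 and 1420 to 1730 FPKM at t40, against 632 to 797 FPKM at t0. At t40, CHS7, CHS8, IFS2 and EXP1 lay above all controls. IFS1 overlapped the controls, at 246 to 274 FPKM against 198 to 294 FPKM. EXPB2 did so too, at 3.38 to 5.16 FPKM against 1.0 to 5.45 FPKM. Of 19 nodule symbols 11 were listed at 0 in all libraries and 15 stayed under 1 FPKM, every leghemoglobin among these. Their sum was 131 to 439 FPKM at t20 and 250 to 312 FPKM at t40, against 99.2 to 276 FPKM at t0, nearly all of it from NOD33. The summed level of 4 leaf photosynthesis genes was 59.2 to 342 FPKM at t20 and 22.7 to 39.6 FPKM at t40, against 17.8 to 48.0 FPKM at t0, nearly all of it from CAB3, a chlorophyll-binding protein. The highest value was in a t20 library. The part of these differences in the form shares was not tested.

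Gene sums that ran most like the members over the 9 libraries were picked by Pearson's r among 19448 genes with a mean of at least 5 FPKM. For ARF9 these were LOC100779924 (r = 0.986), LOC100801151 (0.985), LOC100780004 (0.984), LOC100792353 (0.981) and LOC100777230 (0.98). LOC100779924 had 7.4 ± 3.23 FPKM at t20 and 8.09 ± 0.532 at t40, against 2.97 ± 0.575 at t0, with a log2 difference of 1.00 at t20 and 1.21 at t40. For aminopeptidase M1 they were LOC100808939 (r = 0.991), LOC100787563 (0.983), LOC100793566 (0.959), PIP2-14 (0.958) and LOC100805158 (0.954). PIP2-14, a water channel of the plasma membrane, had 341 ± 38.2 FPKM at t20 and 260 ± 45.6 at t40, against 196 ± 29.2 at t0. The shared difference between t0 and the sucrose libraries makes up much of such an r, so it is a description of likeness only.

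The study places both genes in auxin response and transport, so other auxin genes were tested as gene sums. The deposited table holds no gene descriptions, and 40 genes could be recognised by symbol, of which 32 passed the filter. With limma on log2(FPKM + 1) and Benjamini-Hochberg adjustment over 32763 genes, a call asked for an adjusted p under 0.05 and a log2 difference of at least 1 in size. At t20, 0 of the 32 were called in either direction, while 6 (18.8%) had an unadjusted p under 0.05, as did 17.1% of all genes. Of all genes, 0.766% were called higher and 0.156% lower at t20. At t40, 5 of the 32 were called higher and 0 lower, against 10.5% and 3.49% of all genes. The median log2 difference of the list was -0.01 at t20 and -0.06 at t40, against 0.02 and 0.06 over all genes.

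The 5 genes called at t40 were all LAX genes, which code for carriers that bring auxin into cells. Of 14 LAX genes tested, LAX1, LAX3, LAX4, LAX13 and LAX15 were called higher, and 0 of 14 were called lower. LAX4 was under 1 FPKM in every control and passed the filter only through its sucrose libraries. Its place among the 5 called genes is therefore a description. LAX2, LAX9 and LAX11 differed by 0.96, 0.98 and 0.68 on the log2 scale at t40, below the size asked for. Their adjusted p was 0.0192, 0.0196 and 0.0293 from limma. LAX14 differed by 0.38. LAX5, LAX6, LAX8, LAX10 and LAX12 had log2 differences of -0.54, -0.73, -0.64, -0.49 and -0.80 at t40. For LAX14 and these falling genes the adjusted p from limma was 0.0868 to 0.245. The median log2 difference of the 14 was 0.04 at t20 and 0.82 at t40. Between t40 and t20, LAX13 alone of the 32 was called, where 1.3% of all genes were called higher and 0.058% lower. Its adjusted p was above 0.05 in 8 of 9 fits with a library missing, with pseudocounts of 0.1 and 0.5, without the filter and without the variance trend. These genes form a family whose sequences were not compared here. Whether reads were split between its members was not tested.

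LAX3 had 18.7, 23.9 and 19.3 FPKM at t40, against 7.6, 8.51 and 6.65 FPKM at t0. Its log2 difference was 1.33 (SE 0.24, adjusted p = 0.00567 from limma), and over 16 alternatives the adjusted p ranged from 0.00128 to 0.0288. All 3 t40 libraries of LAX3 lay above all 3 controls, as in 26.6% of the 32763 genes tested. LAX13 had 12.3, 17.5 and 13.5 FPKM at t40, against 6.73, 6.84 and 3.82 FPKM at t0, a log2 difference of 1.20 (SE 0.23, adjusted p = 0.00714 from limma, 0.00395 to 0.0351 over alternatives). LAX1 differed by 1.25 (SE 0.31), LAX4 by 1.16 (SE 0.27) and LAX15 by 1.07 (SE 0.19), with adjusted p of 0.0183, 0.0165 and 0.00504 from limma. LAX4 was low, at 3.22, 2.64 and 1.48 FPKM at t40, against 0.271, 0.551 and 0.746 FPKM at t0. Its difference was 2.05 with a pseudocount of 0.1 and 0.83 with quantile normalization (adjusted p = 0.0515 from limma). LAX15 differed by 0.88 with quantile and 0.99 with median-ratio scaling, below the size asked for. Of the 5, LAX3 alone was called in all 9 fits that left out one library. LAX13 was called in 8, LAX4 and LAX15 in 7 and LAX1 in 6. All 5 were higher at t40 under each of the 16 alternatives, by 0.83 or more on the log2 scale. The number of auxin genes called at t40 was 3 with quantile normalization, 3 without library 3 and 2 without library 8, and without library 1 it was 5 higher and 2 lower.

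Of the Aux/IAA repressors AUX28 was tested, with a log2 difference of 0.51 (SE 0.49) at t20 and 1.09 (SE 0.49, adjusted p = 0.126 from limma) at t40. It spread widely, at 16.4, 8.72 and 5.5 FPKM at t40, against 4.23, 3.61 and 3.68 FPKM at t0. The receptors had 0 of 6 genes called and the PIN carriers, which let auxin out of cells, 0 of 9, at either time, too few genes to set apart from the 10.5% and 3.49% of all genes called at t40. TIR1D differed by -0.60 (adjusted p = 0.0399 from limma) and PIN1B by -0.90 (adjusted p = 0.0417 from limma) at t40, below the size asked for. The median log2 differences of receptors and PIN carriers at t40 were -0.28 and -0.23.

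**Figure D5:**
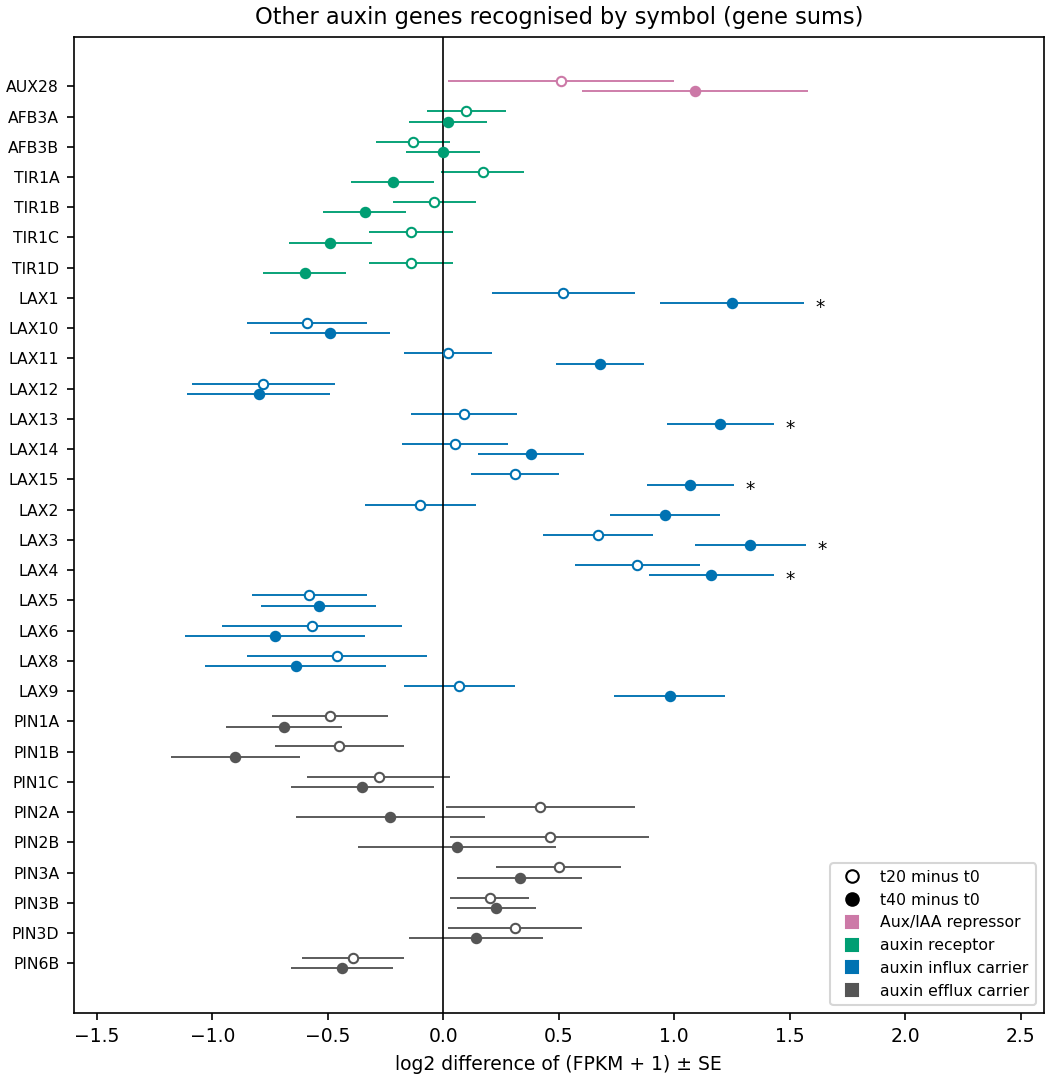
Log2 difference of (FPKM + 1) with its SE (horizontal axis) for 30 of the 32 tested auxin genes recognised by symbol (vertical axis); open points are t20 minus t0, filled points t40 minus t0, colours give the role, and a star marks an adjusted p under 0.05 with a difference of at least 1. Only filled points of 5 LAX genes carry a star.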

How the data were processed

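RNA-seq libraries were made with a stranded mRNA kit from 9 plants, 3 for each of t0, t20 and t40. Per the submitters' notes and the study's methods, reads were demultiplexed with bcl2fastq 2.20, trimmed with Trimmomatic 0.32, aligned with HISAT2 to Glycine_max_v4.0 and assembled with StringTie, and values were extracted with Ballgown; other versions are not given in the sources used here. The deposited values are FPKM per transcript, corrected by the authors' tools for transcript length and sequencing depth. Count models were not used on these values.

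The columns name the time but no replicate number, so no column was assigned to a single plant. A further 9 columns of coverage could not be matched within the limit of 1 column per sample. They were looked at before this was settled and no value comes from them. The study lists read numbers for each library, on average lowest at t40, but as the columns carry no replicate number these could not be tied to single columns, and no counting error is given. For 490 transcripts with no gene identifier the transcript name was used. In 876 cases a gene identifier joins several named genes, though not for ARF9 or aminopeptidase M1.

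Gene sums of at least 1 FPKM in at least 3 of 9 libraries (32763 genes) were tested with limma 3.58.1 in R 4.3.3, using lmFit and eBayes with a variance trend. The 9 libraries entered one model of log2(FPKM + 1), with contrasts t20 minus t0, t40 minus t0 and t40 minus t20 and Benjamini-Hochberg adjustment. A difference on this scale understates the change of low genes. The fit was tested on simulated data first. Shares are form over gene sum in one library. Summaries used Python 3.11.15. Named are both genes with all their forms, the 5 most alike genes of each by Pearson's r, the auxin genes called and the annotated neighbours; 2 genes of the list are counted but not reported here. Members and lists were chosen with earlier results of these data known. One symbol, ARF with no number, was left out of the auxin list because it can also mean ADP-ribosylation factor. A planned comparison with other M1 aminopeptidases and ARF proteins by sequence was not made, since no protein sequence was used here.

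Alternatives were pseudocounts of 0.1 and 0.5, no filter, quantile and median-ratio scaling, only the groups compared, no variance trend, a fit of single transcripts, and fits without each of the libraries. For the form shares they were shares of the FPKM summed over libraries and only rows with the annotated gene name.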

Additional observations from a re-analysis of the deposited data

Results flagged for a closer look

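Of the 32 tested auxin genes, LAX13 alone was called in the direct test of t40 against t20, close to the threshold. LAX2, LAX9 and LAX15 also differed upward, by 1.06, 0.91 and 0.76 on the log2 scale (adjusted p = 0.0609, 0.102 and 0.0861 from limma). LAX6, LAX8 and LAX12 differed by -0.15, -0.18 and -0.02. LAX13 had 12.3, 17.5 and 13.5 FPKM at t40, against 6.12, 6.93 and 5.3 FPKM at t20, a log2 difference of 1.11 (SE 0.23, adjusted p = 0.0494 from limma). In this comparison 1.3% of genes were called higher and 0.058% lower. The adjusted p ranged from 0.0288 without library 3 to 0.205 without library 8, and it was above 0.05 in 8 of the 9 fits made with 1 library missing. It was also above 0.05 with pseudocounts of 0.1 (0.0898) and 0.5 (0.0615), without the filter (0.0871) and without the variance trend (0.0502), and below it with quantile (0.0381) and median-ratio scaling (0.0316).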

How the results depend on the processing

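Shares of the FPKM summed over libraries differed from the mean shares by at most 1.3 percentage points. Without one library, the share at t20 was 60.5% to 70.9% for MSTRG.769.4 and 51.1% to 66.2% for XM_003522221.5. XM_006573254.3 had 0.702% at t20 without library 6, and XM_006578021.4 had 2.34% at t20 without library 5 and 0.137% at t40 without library 8. Using only rows with the annotated gene name drops MSTRG.769.4 by construction. XR_001387768.3 then had 95.3% at t20 and 96.7% at t40, and XM_006573254.3 4.67% and 3.27%, against 83.9% at t0. The log2 difference of the gene sum ranged over the alternatives from 0.65 to 1.12 at t20 and from 0.90 to 1.18 at t40 for ARF9, and from 0.36 to 0.49 and from 0.16 to 0.31 for aminopeptidase M1. The auxin genes called at t40 were 3 with quantile normalization and 2 to 7 over the fits without one library, 2 of the 7 lower without library 1, and the count at t20 was 0 in all alternatives run. Quantile normalization moved the median of all genes at t40 to -0.11, against 0.06, and split the calls at t40 into 2690 higher and 1621 lower, against 3441 and 1144. LAX3 differed by 1.17 under it. The number of all genes called at t20 (302) was 706 and 465 with pseudocounts of 0.1 and 0.5, 0 without the filter (limma), 141 with quantile and 137 with median-ratio scaling, 1 with only the groups compared and 24 for single transcripts. Without one library it ranged from 0 to 2233, the highest without library 5 and 0 without library 2, 4 or 6, where 4538, 3214 and 4494 genes had an unadjusted p under 0.05. At t40 (4585) it ranged from 3001 to 5367, the lowest without library 8. No paired analysis was possible because the columns carry no replicate number. The comparison with other M1 aminopeptidases was not run. Depth could not be tied to single columns, and 3 libraries for each time limit the precision of every mean.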

Other observations

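Genes next to the members on the chromosome were little expressed. On either side of ARF9, LOC102670216 and LOC102670476 were listed at 0 in all libraries, and the nearer one begins 13891 bases away. Beside aminopeptidase M1, LOC100799914 did not exceed 0.0528 FPKM. LOC100809836, which ends 13427 bases before it, reached at most 2.18 FPKM at t20 and 3.0 FPKM at t40, against 0.675 FPKM at t0.

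Among the auxin genes recognised by symbol, 12 had more than 1 form and at least 5 FPKM in every library. They moved a median of 5.7% of the gene sum between forms at t20 and 10.6% at t40, with at most 28.7% and 24.7%. The leading form changed in 0 of the 12 at t20 and in 0 at t40. Of all 7986 such genes, 0.576% and 1.01% had one form leading in every control and another in every library of that time. The 12 are too few genes to set apart from these shares.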
